A study of Mus musculus with 55 samples.

Results

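The immunity-related GTPases (IRGs) are represented here by 7 genes, Irgm1, Irgm2, Igtp, Iigp1, Ifi47, Tgtp1 and Tgtp2, chosen by symbol from the 55421 genes of the first count table and looked up again among the 35976 rows of the second. IRG proteins are interferon-inducible GTPases that accumulate on the vacuoles of intracellular parasites and bacteria and help to disrupt them. Irgm1, Irgm2 and Igtp (Irgm3) are regulators that sit on the cell's own membranes and hold the effectors in the inactive state, whereas Iigp1 (Irga6), Ifi47 (Irgd), Tgtp1 (Irgb6) and Tgtp2 (Irgb6) are effectors. In blood formation the family is best known through Irgm1, whose loss disturbs the response of hematopoietic stem cells (HSCs) to interferon.

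RNA-seq was performed on bulk samples of 200 cells, as the labels state, sorted from mouse bone marrow and made into full-length cDNA libraries with a Smart-seq kit. The study's methods instead give a larger number of cells and a modified Smart-seq2 protocol. The first set has 46 libraries: long-term HSCs (LT-HSC), short-term HSCs (ST-HSC), and the progenitors of lymphoid cells (CLP, common lymphoid), of all myeloid cells (CMP, common myeloid), of granulocytes and macrophages (GMP) and of megakaryocytes and erythroid cells (MEP), each from wildtype (WT) and Tet2-KO mice. There are 4 libraries per genotype and population (replicates 2 to 5) except 3 for WT LT-HSC and 3 for WT ST-HSC (replicates 2, 3 and 5). The second set is LT-HSC alone, in 9 libraries numbered 1 to 3 within WT, Sting-KO and Tet2/Sting-DKO. Tet2 encodes a dioxygenase that oxidizes methylated cytosine in DNA and is often mutated in clonal hematopoiesis, and Sting (symbol Tmem173) encodes the adaptor that passes the signal of cytosolic DNA to type I interferon. Tet2-KO mice carried floxed Tet2 and Mx1-Cre, a Cre driven by an interferon-responsive promoter that also acts outside blood cells. They were given 5 doses of poly(I:C), an RNA mimic that itself evokes interferon, at 4 weeks of age, and those of the first set were killed 16 weeks after induction. Tet2/Sting-DKO mice carried the same alleles on a Sting-null background and were given the same poly(I:C). Whether the WT and Sting-KO mice of these libraries also received it is not stated in the sources used here. A legend of the study on flow cytometry dates the analysis of all its mice from poly(I:C) injection. The part of that treatment in the differences was not tested. The study's legends describe each LT-HSC library as an individual mouse and count the other comparisons in mice, so p-values measure the spread between mice together with that of sorting and amplification.

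Total counts ran from 50458473 to 102148079 per library in the first set and from 26776517 to 78682096 in the second, and no 2 libraries were identical. To check the labels against defining markers, CPM (counts scaled to the library's total, itself corrected for composition by TMM) were summed over lists. Over the HSC list (Procr, Slamf1, Hlf, Mecom, Fgd5, Ly6a) they came to 251 to 578 in LT-HSC and 232 to 378 in ST-HSC, against 4.67 to 18.3 in MEP, and over the GMP list (Mpo, Elane, Prtn3, Ctsg, Fcgr3) 31417 to 44451 in GMP. The CMP list, at 559 to 787 CPM in CMP, was no higher there than in GMP (673 to 1005). The CLP list summed to 451 to 2260 CPM in CLP and to at most 207 elsewhere, but CLP libraries also held markers of other cells. There the GMP list ran from 2.68 to 12141 CPM in Tet2-KO and 5.06 to 3100 in WT. The T and NK list ran from 475 to 2527 CPM in Tet2-KO CLP and 219 to 870 in WT CLP. That list was also high in GMP (517 to 775 CPM in Tet2-KO and 596 to 759 in WT), so it is not particular to CLP. The HSC list ran from 24.5 to 425 CPM in Tet2-KO CLP and 103 to 345 in WT CLP. Most of it was Ly6a (mean 171 CPM in Tet2-KO and 233 in WT), so that sum does not by itself show HSCs in CLP libraries. In CLP the B-cell list, mostly Igkc, summed to 84703 to 262854 CPM in WT and 175 to 152088 CPM in Tet2-KO, so those libraries held immunoglobulin transcripts in very unequal amounts. Tet2 itself was not lower in the libraries labelled Tet2-KO (6.05 to 72.5 CPM) than in WT (2.33 to 41.2 CPM). A count over the whole gene does not show the loss of a floxed part, so this neither checks nor contradicts the label. In the second set Tet2 had 977, 0 and 0 counts in WT, 498, 1729 and 91 in Sting-KO and 1342, 1433 and 56 in Tet2/Sting-DKO, so that WT replicates 2 and 3 held none. Sting counts went against some labels there. Sting had 6333, 0 and 3835 counts in the 3 Sting-KO libraries and 0, 14 and 1128 in the 3 Tet2/Sting-DKO libraries, against 1788, 1168 and 0 in WT. Xist was at 3543 to 8228 counts in the 3 WT libraries and at 0 to 806 in the other 6. The Y-chromosome gene Eif2s3y was at 0 to 8 counts in WT and at 7229 to 20154 in the other 6. Genotype and sex therefore cannot be told apart in the comparisons with WT.

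Of the 7 genes, 6 lie on chromosome 11 (mm10, GENCODE vM21, all protein coding) in a pair of clusters. Irgm1 spans chr11:48861968-48871683 on the minus strand and is followed by Tgtp1 (chr11:48985327-48994172, minus), Tgtp2 (chr11:49057194-49064206, minus) and Ifi47 (chr11:49076587-49096974, plus), with only 12380 bases between Tgtp2 and Ifi47. Igtp (chr11:58199556-58207591) and Irgm2 (chr11:58199618-58222782) lie 9102581 bases farther on, both on the plus strand. Their gene models overlap by 7974 bases, so reads of one could be counted for the other. Iigp1 lies apart, on another chromosome.

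The regulators and the effectors differ in the nucleotide-binding loop, where the regulators have methionine in place of the lysine of most GTPases. The coding stretch of that loop is shown, from the mm10 transcripts, with the codon of that residue in capitals.
Irgm1 (chr11:48866761-48866784, minus): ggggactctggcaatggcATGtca
Irgm2 (chr11:58219695-58219718, plus): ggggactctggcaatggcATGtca
Igtp (chr11:58206275-58206298, plus): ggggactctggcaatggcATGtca
Ifi47 (chr11:49095648-49095671, plus): gggcagtctgggactggcAAGtcc
Tgtp1 (chr11:48987667-48987690, minus): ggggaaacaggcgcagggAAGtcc
Tgtp2 (chr11:49059534-49059557, minus): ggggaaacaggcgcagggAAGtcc
The 3 regulators share all bases of the stretch, and Iigp1 also encodes lysine there. Over the whole coding sequence Tgtp1 and Tgtp2 differ at 4 of 1245 bases (99.68% identity), so reads cannot be divided surely between these copies and their counts are not independent. The other pairs range from 61.68% identity (Irgm2 and Iigp1) to 74.62% (Irgm2 and Igtp).

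IRG genes respond to interferon through GAS and ISRE elements, and their promoters were therefore searched for a GAS-type motif, TTCNNNGAA, and an ISRE-type motif, GAAA and again GAAA with any 2 bases between, on both strands of the 250 bases before the RefSeq start (GRCm38.p6). Of the 7 genes, 6 are in the promoter table used. The matches are in capitals.
Irgm1 (chr11:48871425-48871460, minus): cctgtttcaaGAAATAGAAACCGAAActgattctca
Irgm2 (chr11:58214892-58214932, plus): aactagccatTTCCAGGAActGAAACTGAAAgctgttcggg
Igtp (chr11:58199501-58199541, plus): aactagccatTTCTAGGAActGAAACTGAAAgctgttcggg
Tgtp1 (chr11:48992304-48992344, minus): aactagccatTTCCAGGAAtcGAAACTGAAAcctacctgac
Tgtp2 (chr11:49064263-49064303, minus): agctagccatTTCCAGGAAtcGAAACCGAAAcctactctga
Irgm1 has 2 overlapping ISRE-type matches, starting 30 and 24 bases before the start site, and no GAS-type match. In Irgm2, Igtp, Tgtp1 and Tgtp2 a GAS-type match stands 2 bases ahead of an ISRE-type match, the latter starting 64, 34, 77 and 70 bases before the start. Ifi47 has no match in this window. An ISRE-type match was found in 978 of all 32851 promoters (2.98%), a GAS-type match in 2306 (7.02%) and both in 109 (0.332%). The combined arrangement, a GAS-type match, any 2 bases and an ISRE-type match on the same strand, was searched after these promoters had been seen. It stands in 5 promoters (0.0152%), those of the 4 members and of Gm12185, another IRG gene.

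In WT mice the means of Tgtp1, Tgtp2 and Iigp1 were highest in LT-HSC and those of Irgm1 and Ifi47 in ST-HSC. Those of Irgm2 and Igtp were highest in CLP, where they did not differ from LT-HSC beyond the spread (edgeR adjusted p = 1 and 0.559). That order rests on the TMM scaling. Over unscaled totals both means would be higher in LT-HSC than in CLP. WT levels differed between the 6 populations for 6 of the 7 genes at an adjusted p under 0.05 (edgeR F test, where 42% of 22360 genes passed), the exception being Irgm1. The call of Ifi47 (adjusted p = 0.0498) was lost without any 1 number of WT libraries (0.0751 to 0.255), without Tet2-KO number 4 (0.0565), with no low-count filter (0.0681), with the replicate block (0.0877) and with limma and a random block (0.0997). Irgm2 lost its call without WT number 2 or 3 (0.0608 and 0.0849), and Irgm1 gained one without WT number 5 (0.0394) and by DESeq2 (0.0489).

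Tgtp2, an effector, had the highest level in LT-HSC and ST-HSC. Its WT values were 482, 474 and 493 CPM in LT-HSC, 431, 349 and 491 in ST-HSC, 116, 54.2, 57.7 and 59.3 in MEP, and 32.8, 19.99, 22.1 and 38.6 in GMP. The lowest LT-HSC library was above every WT library of the 4 progenitors, whose highest was a CLP library at 269.9 CPM. Its mean was 17.03 times as high in LT-HSC (483 ± 9.46, SD, n = 3) as in GMP (28.4 ± 8.83, n = 4; edgeR log2 difference 4.09, adjusted p = 1.24e-08). Tgtp1 followed the same order at 304 ± 26.6 CPM in LT-HSC and 13.8 ± 5.07 in GMP, a ratio of 22.05. Of the 15 pairs of WT populations, Tgtp1 passed the edgeR test (adjusted p under 0.05 and at least 2-fold) in 11 and Tgtp2 in 11, as did Iigp1 in 9, Igtp in 7, Irgm2 in 4, Ifi47 in 2 and Irgm1 in 1. Between 0.0939% and 26.6% of genes passed it in a pair, and 11.5% over the 15 pairs together.

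Iigp1, the effector that coats parasite vacuoles, is on the plus strand of chromosome 18 and had the widest range. WT libraries held 30.4, 54.3 and 65.4 CPM in LT-HSC, 38.6, 19.2 and 88.2 in ST-HSC, and 24.5, 0.0998, 7.28 and 32.8 in CLP. The myeloid progenitors held almost none: 0, 0.445, 0 and 2.18 CPM in CMP, 0, 0.0531, 0.336 and 0.895 in GMP, and 0.080, 0.163, 0 and 0.860 in MEP. LT-HSC and CMP ranges did not overlap (log2 difference 6.19, SE 1.63, edgeR adjusted p = 0.0209). The CLP libraries were spread over more than the gap to the HSCs, and CLP did not differ from LT-HSC (1.63, SE 1.39, adjusted p = 0.422).

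Ifi47, the fourth effector, was the flattest of them. Its WT mean was highest in ST-HSC (205 ± 18.8 CPM, n = 3) and LT-HSC (204 ± 72.0, n = 3) and lowest in MEP (75.7 ± 2.41, n = 4), a ratio of 2.70. The MEP libraries were close together, at 74.3, 73.1, 78.0 and 77.5 CPM. Only its 2 comparisons of an HSC population with MEP passed the pairwise test (LT-HSC, log2 difference 1.43, edgeR adjusted p = 0.0303, and ST-HSC, 1.43, adjusted p = 0.0249).

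Among the regulators, Igtp had WT values of 122, 114, 5.84 and 142 CPM in CLP, 51.4, 50.9 and 103 in LT-HSC, and 15.996, 12.2, 14.04 and 10.7 in MEP. One CLP library thus fell below every MEP library while the other 3 were above every LT-HSC library. Irgm2 was the lowest regulator, at 16.1 ± 14.6 CPM in CLP and 1.12 ± 1.24 in MEP (edgeR log2 difference of MEP from CLP -3.82, adjusted p = 0.000644). Irgm1, the regulator tied to HSC function, ran from 106 ± 16.9 CPM in ST-HSC to 40.3 ± 3.22 in GMP, and its F test gave an adjusted p of 0.102. When the 6 populations were ordered by the mean of each gene, 4 of 35 neighbouring pairs passed the test, as did 2.35% of such pairs over all genes. They were Tgtp1 in ST-HSC over CLP (log2 difference 1.39), Tgtp2 in ST-HSC over CLP (1.68), Tgtp2 in MEP over GMP (1.34), and Iigp1 in CLP over CMP (4.56), whose ranges overlapped. Without the WT libraries numbered 2, or those numbered 3, the count was 1, and without those numbered 4 it was 2.

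Per kilobase of exon, the order of the genes in WT LT-HSC was Tgtp2 (164 CPM per kb), Tgtp1 (95.0), Ifi47 (82.6), Igtp (33.8), Irgm1 (13.3), Iigp1 (8.60) and Irgm2 (4.10). Tgtp2 led in both HSC populations and Ifi47 in the other 4, at 57.5 CPM per kb in CMP, 43.1 in GMP, 30.6 in MEP and 54.8 in CLP. The lead of Ifi47 was within the spread in CLP (SD 26.4, against Igtp at 47.5, SD 30.3, and Tgtp2 at 45.1, SD 31.4), in CMP (SD 26.8, against Tgtp2 at 43.4, SD 9.87) and in MEP (SD 0.973, against Tgtp2 at 24.5, SD 10.1). In GMP (SD 14.7) Tgtp2 was at 9.66 CPM per kb (SD 3.01). These values depend on the lengths used, here the GENCODE exons. With the lengths listed in the second table, an alternative chosen after seeing the data, Irgm1 would be 2.24 times and Iigp1 1.68 times as high, the order in LT-HSC and the leading gene in each population would be as given, and Irgm1 would be next to Ifi47 in GMP (15.5 against 53.0 CPM per kb) and MEP (26.7 against 37.6).

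**Figure D1:**
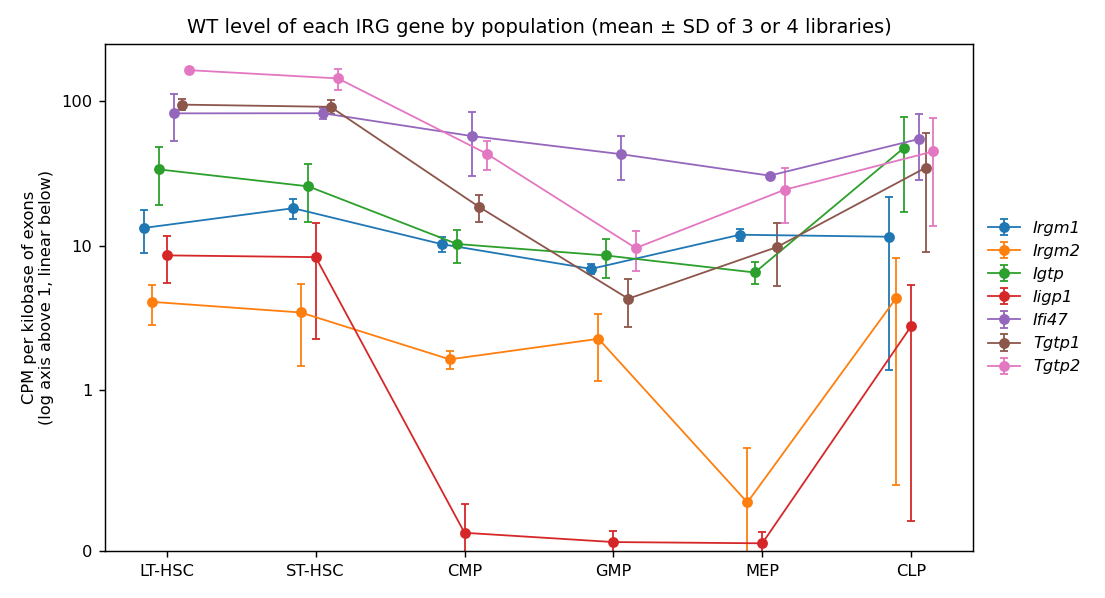
Level of each IRG gene in WT libraries of the first set, by population, in CPM per kilobase of exon on an axis that is logarithmic above 1 and linear below. Points are means of 3 or 4 libraries with SD bars. Tgtp2 and Tgtp1 stand highest in LT-HSC and ST-HSC, and Ifi47 has the highest mean in the 4 progenitor populations, within the spread in CLP, CMP and MEP.

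Loss of Tet2 was then compared with WT within each population. Of the 42 combinations of gene and population, 40 had a log2 fold change above 0, while 54.3% of all genes did in LT-HSC, 53.1% in ST-HSC, 52% in CMP, 52.9% in GMP, 54.2% in MEP and 54.1% in CLP. In 14 of the 42, all upward, the unadjusted p was under 0.05 (1.67% to 8.09% of genes in a population), in 5 the adjusted p was under 0.05 (0.00766% to 1.71% of genes upward), and 1 of these, Igtp in MEP, also reached the 2-fold limit of a call. The median log2 fold change of the 7 genes was 1.71 in MEP, 0.68 in LT-HSC, 0.65 in CMP, 0.57 in ST-HSC, 0.50 in CLP and 0.46 in GMP, against 0.03 to 0.07 over all genes tested. The share of mitochondrial counts moved with genotype too. It was higher without overlap in Tet2-KO in ST-HSC (10.0% to 13.1% against 8.73% to 9.02%), CMP (7.85% to 8.37% against 5.94% to 6.57%) and GMP (4.74% to 5.09% against 3.64% to 4.598%), and overlapped in LT-HSC (8.82% to 14.5% against 8.02% to 9.50%), MEP (8.96% to 9.74% against 6.85% to 9.18%) and CLP. Its part in these values was not tested. Fewer expressing cells and less RNA per cell cannot be told apart in bulk samples. These 7 genes were taken up with earlier results of these data known, and the study itself displays Irgm1, Irgm2, Iigp1 and Ifi47 from the same LT-HSC libraries, so their direction there is not independent evidence.

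**Figure D2:**
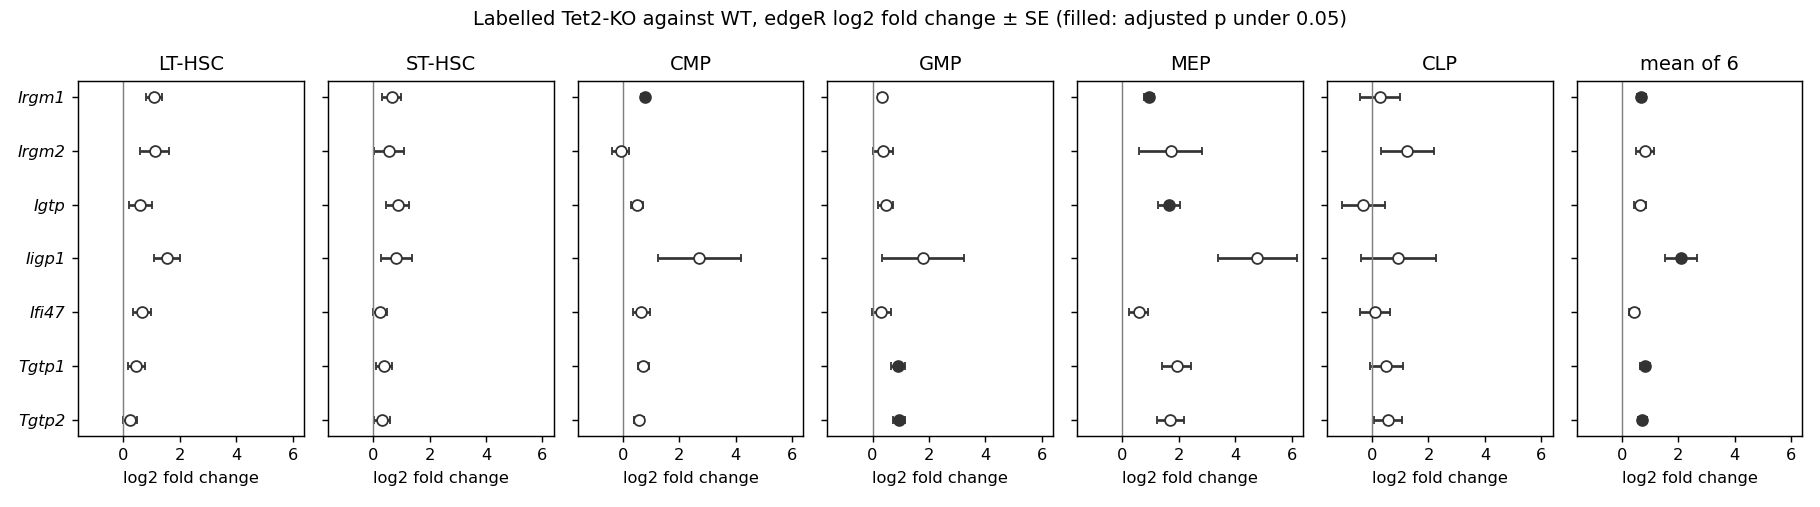
Log2 fold change (Tet2-KO over WT) of each IRG gene in each of the 6 populations and over the mean of 6, with its standard error (edgeR), filled where the adjusted p is under 0.05. All values lie above 0 except Irgm2 in CMP (-0.07) and Igtp in CLP (-0.31), and the largest values of Iigp1, Igtp, Irgm2, Tgtp1 and Tgtp2 are those in MEP, while Irgm1 and Ifi47 have theirs in LT-HSC.

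In LT-HSC 0 of the 7 genes passed (4 of 16351 genes did, 0.0245%), with 2 of 7 at an unadjusted p under 0.05 (3.02% of genes upward). DESeq2 called 2, Irgm1 and Iigp1, and 0.887% of all genes (0.55% upward). Irgm1 was at 153, 213, 146 and 144 CPM in Tet2-KO and at 101, 81.4 and 50.2 in WT. Each Tet2-KO library was above each WT library, with means of 164 ± 33.2 and 77.4 ± 25.5 (log2 fold change 1.10, SE 0.29, adjusted p = 0.554 by edgeR). The exact permutation test, two-sided, gave p = 0.0286 for Irgm1, the lowest that 4 against 3 libraries can reach. Iigp1 was at 71.2, 243, 90.0 and 169 CPM against 30.4, 54.3 and 65.4, also without overlap (log2 fold change 1.54, SE 0.47, edgeR adjusted p = 0.740; exact permutation p = 0.0571). Irgm1 and Iigp1 are thus 2 of 7 genes with no overlap, where 3.12% of all genes were higher without overlap. Irgm2 had 32.9, 47.5, 10.6 and 37.7 CPM in Tet2-KO against 20.1, 14.4 and 10.9 in WT, so that replicate 4 lay below every WT library. Ifi47 had 229, 415, 389 and 262 CPM against 237, 254 and 122, with 3 of 4 above the WT range. For Igtp, Tgtp1 and Tgtp2, 2 of the 4 Tet2-KO libraries were above the WT range, while 0, 1 and 2 were below it, and the log2 fold changes were 0.61, 0.46 and 0.25. Tgtp2 was thus split evenly, at 406, 792, 641 and 431 CPM in Tet2-KO around 474 to 493 in WT. The HSC marker list ran from 431 to 578 CPM in Tet2-KO LT-HSC and from 251 to 474 in WT. Most of that was Hlf (170 ± 39.1 CPM against 69.9 ± 45.1), while Fgd5 was level (17.8 against 17.2) and Mecom lower (71.2 against 83.3). The part of this shift in the result was not tested.

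In ST-HSC 0 of 7 passed (0.0185% of genes did), none had an unadjusted p under 0.05 (2.81% of genes upward), DESeq2 called 0 (1.15% of genes, 0.611% upward), and none of the groups were separate (3.28% of genes were higher without overlap). Igtp was at 69.3, 150.5, 60.1 and 97.4 CPM in Tet2-KO and at 74.5, 29.4 and 52.8 in WT (log2 fold change 0.88, SE 0.41, and 0.56 to 1.23 when 1 library was left out). Iigp1 was at 41.8, 125.1, 69.5 and 103.2 CPM against 38.6, 19.2 and 88.2 (0.83, SE 0.54, 0.44 to 1.58). Irgm2 was at 12.3, 19.7, 11.4 and 31.2 CPM against 20.9, 6.61 and 10.8 (0.57, SE 0.52, 0.22 to 1.13). All 3 overlapped, and the log2 fold changes of Tgtp1 (0.39), Tgtp2 (0.33) and Ifi47 (0.24) were smaller. Irgm1 was at 86.6, 215, 135 and 223 CPM in Tet2-KO and at 120.1, 87.2 and 110.4 in WT, so that replicate 2 lay just below the WT range and the other 3 above it.

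In CMP 0 of 7 passed both limits (4.57% of genes did, 0.654% upward), 4 had an unadjusted p under 0.05 (8.09% of genes upward), and DESeq2 called 0 (6.03% of genes, 1.17% upward). Irgm1 had an adjusted p of 0.00703 at a log2 fold change of 0.79 (SE 0.13, edgeR), under 2-fold. With no fold limit 1.71% of genes rose at an adjusted p under 0.05. The values of Irgm1 were 89.2, 105, 118 and 105 CPM in Tet2-KO and 59.7, 67.8, 60.3 and 50.8 in WT, which do not overlap, as was so upward for 6.82% of genes. Tgtp1 (72.5, 113, 95.7 and 114 CPM against 60.5, 53.1, 47.3 and 76.9) and Tgtp2 (150.2, 219, 189 and 208 against 132, 112, 99.9 and 166) each had 3 of 4 Tet2-KO libraries above the WT range. Iigp1, near 0 in WT CMP, was at 1.60, 3.65, 7.17 and 5.49 CPM in Tet2-KO (log2 fold change 2.71, SE 1.48, edgeR adjusted p = 0.377, and 4.67 without WT replicate 5). Irgm2 was at 5.82 ± 1.87 CPM against 6.05 ± 0.832, within the spread. Igtp was at 27.2, 34.7, 30.4 and 27.7 CPM against 18.7, 28.1, 15.3 and 21.2 (0.51, SE 0.21, edgeR adjusted p = 0.209), and Ifi47 at 222.0, 197.1, 253.8 and 230.4 against 202.6, 196.8, 83.9 and 85.8 (0.65, SE 0.30, adjusted p = 0.274), both with overlap. The MEP marker list, mostly the erythroid gene Car1, summed to 2756 to 5594 CPM in Tet2-KO CMP and to 560 to 1572 in WT, while its member Klf1 was at 16.8 ± 2.66 CPM in Tet2-KO and 47.3 ± 18.4 in WT. Its part in these values was not tested.

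In GMP 0 of 7 passed both limits (4.37% of genes did, 0.308% upward), 3 had an unadjusted p under 0.05 (7.35% of genes upward), and DESeq2 called 0 (5.45% of genes, 0.58% upward). Tgtp2 was at 60.2, 44.7, 60.9 and 56.8 CPM in Tet2-KO and at 32.8, 19.99, 22.1 and 38.6 in WT (log2 fold change 0.94, SE 0.21, edgeR adjusted p = 0.0196). Tgtp1 was at 27.2, 24.1, 25.3 and 28.8 CPM against 14.9, 8.41, 11.6 and 20.3 (0.90, SE 0.24, adjusted p = 0.0485). At an adjusted p under 0.05 with no fold limit 1.07% of genes rose. Both Tgtp copies were higher in 4 of 4 Tet2-KO libraries and both stayed under 2-fold, but without WT replicate 5 both passed 2-fold (1.13 and 1.11 for Tgtp1 and Tgtp2), and without WT replicate 2 Tgtp2 did (1.01). The adjusted p of Tgtp2 rose above 0.05 without WT replicate 3 or 4 (0.0523 and 0.0644) and without Tet2-KO replicate 2 or 4 (0.0583 and 0.0624), and that of Tgtp1 without any 1 library other than WT replicate 5 (0.0907 to 0.126). Irgm1 was at 60.6, 45.3, 49.3 and 51.6 CPM against 41.7, 35.5, 41.5 and 42.4, again with no overlap though the difference was small (0.33, SE 0.13, adjusted p = 0.233). These 3 of 7 genes compare with 5.85% of all genes that were higher without overlap. Iigp1 stayed close to 0 in GMP of both genotypes, at 0, 3.52, 0.629 and 0.659 CPM in Tet2-KO. Igtp (0.46, SE 0.25), Irgm2 (0.36, SE 0.34) and Ifi47 (0.31, SE 0.33) overlapped between genotypes (adjusted p 0.406, 0.673 and 0.715). The list of CMP and shared progenitor markers, Kit and Cd34, summed to 883 to 1005 CPM in Tet2-KO GMP and 673 to 842 in WT, and its part was not tested.

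MEP had the largest median difference, although Irgm1 and Ifi47 had larger log2 fold changes in LT-HSC. Igtp rose from 15.996, 12.2, 14.04 and 10.7 CPM in WT to 27.8, 85.3, 26.1 and 28.7 in Tet2-KO (log2 fold change 1.65, SE 0.39, edgeR adjusted p = 0.0402; exact permutation p = 0.0286). Replicate 3 was far above the other 3, which still lay above every WT library. Without it the log2 fold change was 1.06 (adjusted p = 0.0203), and the call was lost without Tet2-KO replicate 5 (adjusted p = 0.0561) and without any single WT library (adjusted p 0.0830 to 0.122). It was also lost with no low-count filter (0.0634), with all libraries in 1 fit (0.0901) and with the replicate block (0.110). It was the 1 of 7 genes to pass, where 4.36% of 14934 genes did and 0.147% upward (0.656% with no fold limit, 6.46% at an unadjusted p under 0.05), while DESeq2 called 4 (Igtp, Iigp1, Tgtp1 and Tgtp2) and 5.98% of all genes, 0.368% upward. Irgm1 was at 90.8, 163, 145 and 137 CPM against 76.6, 61.3, 67.9 and 71.8, under 2-fold (0.94, SE 0.18, adjusted p = 0.0127). With Iigp1, these were 3 of 7 genes without overlap, as were 4.52% of all genes upward.

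The effectors in MEP were spread more widely between libraries. Iigp1 had 4, 12, 0 and 59 counts in the 4 WT MEP libraries and 621, 1643, 98 and 101 in Tet2-KO, or 0.080, 0.163, 0 and 0.860 against 6.36, 25.0, 1.48 and 1.27 CPM. The groups did not overlap, yet the lower 2 Tet2-KO libraries were within 2-fold of the highest WT library (log2 fold change 4.78, SE 1.40, edgeR adjusted p = 0.0994; exact permutation p = 0.0286). The log2 fold change was 3.33 without Tet2-KO replicate 3 and 6.28 without WT replicate 5. Tgtp1 was at 40.6, 246, 96.1 and 101 CPM in Tet2-KO and at 53.3, 21.7, 25.3 and 25.6 in WT (1.92, SE 0.51, adjusted p = 0.0689). Tgtp2 was at 80.0, 449.9, 208 and 213 CPM against 116, 54.2, 57.7 and 59.3 (1.71, SE 0.47, adjusted p = 0.0781). In both copies Tet2-KO replicate 2 lay below WT replicate 2 and the other 3 were above the WT range. Without that Tet2-KO library both passed (adjusted p = 0.0174 and 0.0131), as did Irgm1 (1.06, adjusted p = 0.00105). Irgm2 was low in MEP, at 2.03, 7.41, 2.42 and 3.09 CPM against 0.56, 1.03, 2.87 and 0. Ifi47 was at 81.3, 213, 108 and 57.8 CPM against the narrow WT group, so Tet2-KO libraries lay on both sides of it (0.59, SE 0.33, adjusted p = 0.453). Erythroid markers were lower in Tet2-KO MEP (80.5 to 106 CPM against 157 to 430), the T and NK list overlapped (54.7 to 63.4 against 45.2 to 87.1), and macrophage markers were near 0 in both (at most 5.45 CPM). The erythroid factor Klf1 was at 35.1 ± 11.6 CPM in Tet2-KO and 306 ± 78.4 in WT, and Car1 at 15629 ± 2257 and 12924 ± 749. Kit and Cd34 together ran from 234 to 291 CPM in Tet2-KO and 187 to 225 in WT. The part of these shifts was not tested.

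In CLP 0 of 7 passed (0.00766% of genes did), none had an unadjusted p under 0.05 (1.67% of genes upward), DESeq2 called 0 (0.911% of genes, 0.398% upward), and none of the groups were separate (1.93% of genes were higher without overlap). The libraries of 1 group differed more than the groups. Irgm1 was at 159, 84.8, 44.0 and 40.1 CPM in Tet2-KO and at 57.6, 44.8, 14.7 and 152 in WT. Irgm2 was at 85.5, 36.8, 17.3 and 15.6 CPM against 3.96, 24.5, 3.58 and 32.2 (log2 fold change 1.25, SE 0.93, and 0.53 to 1.84 when 1 library was left out). The log2 fold changes of Iigp1 (0.94, SE 1.31), Tgtp2 (0.58, SE 0.49), Tgtp1 (0.50, SE 0.59), Ifi47 (0.11, SE 0.54) and Igtp (-0.31, SE 0.77) were below 2 of their SEs. Leaving out 1 library gave 0.076 to 1.58 for Iigp1, 0.049 to 1.16 for Tgtp1, 0.29 to 1.19 for Tgtp2, -0.25 to 0.44 for Ifi47, -0.72 to -0.043 for Igtp and -0.25 to 1.08 for Irgm1. Tet2-KO replicate 2 was the highest Tet2-KO library for all 7 genes and WT replicate 5 the highest WT library for all 7. That Tet2-KO library had 12.5% mitochondrial counts, where the other CLP libraries had 2.41% to 7.82%, and the fewest genes detected (13754). Dendritic markers were lower in Tet2-KO CLP (1969 to 2245 CPM against 2967 to 4341), and with the B-cell list above their part was not tested.

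**Figure D3:**
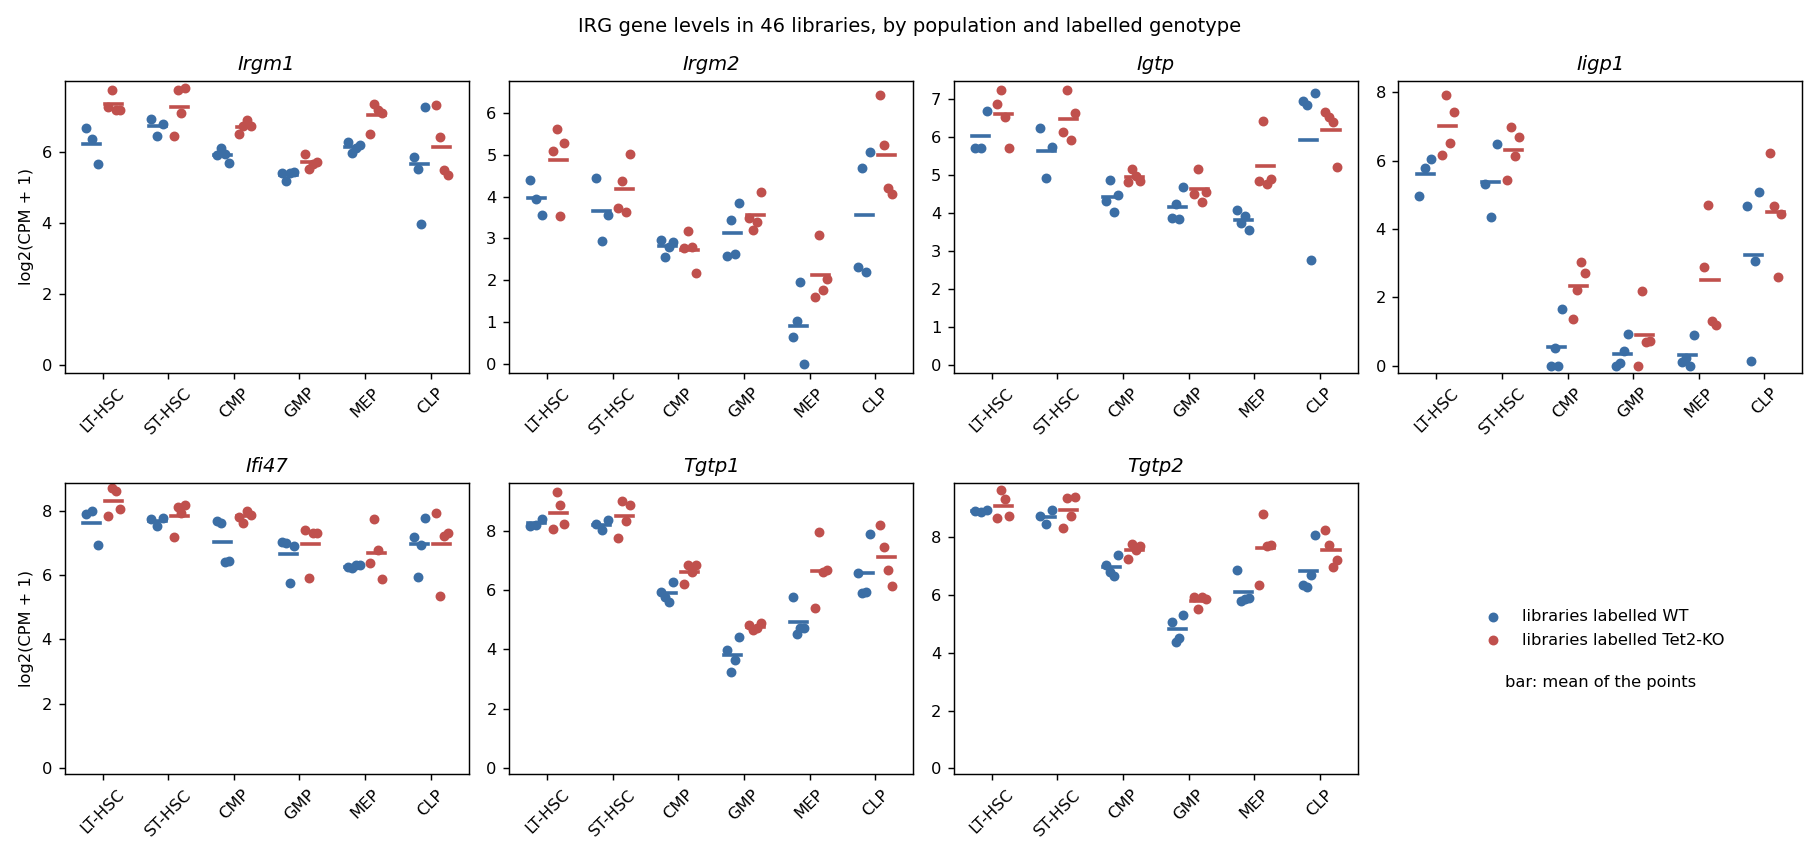
Level of the 7 IRG genes in the 46 libraries of the first set as log2(CPM + 1), by population and labelled genotype. Each point is 1 library and each bar the mean of its group. Irgm1 is separate between genotypes in LT-HSC, CMP, GMP and MEP, and the highest MEP point of every gene is Tet2-KO replicate 3.

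The spread within Tet2-KO was partly shared between genes. Replicate 3 had the highest Tet2-KO value for all 7 genes in LT-HSC and MEP and in 22 of the 42 combinations, where 4 replicates took part. It was above every WT library in 32 of 42, and the others in 20 (replicate 2), 23 (replicate 4) and 27 (replicate 5). Across the 46 libraries, deviations from the group means correlated at r = 0.95 for Tgtp1 with Tgtp2, near-identical copies, at 0.72 for Irgm1 with Tgtp1, and at -0.13 for Irgm2 with Iigp1, where r was 0.099 without the 2 farthest libraries. These are descriptions of libraries that share populations and scaling.

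Over the mean of the 6 populations, the 46 libraries in 1 fit gave an adjusted p under 0.05 for 4 of 7 genes, all upward, as for 2.93% of 22360 genes upward and 6.94% in either direction. They were Tgtp2 (log2 fold change 0.73, SE 0.16, edgeR adjusted p = 0.00183), Tgtp1 (0.82, SE 0.18, adjusted p = 0.00245), Irgm1 (0.69, SE 0.16, adjusted p = 0.00556) and Iigp1 (2.10, SE 0.57, adjusted p = 0.0159). Igtp (0.63, SE 0.21, adjusted p = 0.0576), Irgm2 (0.83, SE 0.32, adjusted p = 0.133) and Ifi47 (0.43, SE 0.17, adjusted p = 0.148) did not pass. Without the WT libraries numbered 3 the call was lost for Irgm1 (adjusted p = 0.0509) and Iigp1 (0.0877), and Iigp1 also lost it without WT number 2 (0.0680) and without Tet2-KO number 3 (0.136). The log2 fold change of Iigp1 was 1.57 without Tet2-KO number 3 and 3.13 without WT number 5. If 1 number is 1 mouse in all populations, which the labels do not state, libraries of a mouse are not independent in that fit. The level of each number over CMP, GMP, MEP and CLP, as the mean of log2(CPM + 1), was therefore compared between the 4 numbers of each genotype. It was higher in all 4 of Tet2-KO for Irgm1 (6.404 ± 0.16 against 5.77 ± 0.33), Irgm2 (3.34 ± 0.32 against 2.60 ± 0.41), Tgtp1 (6.29 ± 0.29 against 5.31 ± 0.47) and Tgtp2 (7.15 ± 0.22 against 6.19 ± 0.39), each with the smallest exact permutation p, 0.0286. Of all genes, 3.82% were higher without overlap in this comparison. For Iigp1 (exact permutation p = 0.0571), Igtp (0.0857) and Ifi47 (0.143) 1 Tet2-KO number lay within the WT range. When counts of these 4 populations were summed per number, Irgm1 alone of the 7 passed (log2 fold change 0.66, edgeR adjusted p = 0.0169), as did 4.12% of genes and 0.502% upward. With the number as a random block in limma, Irgm1 and Iigp1 passed (adjusted p = 0.00577 and 0.0199), and Tgtp1 (0.141) and Tgtp2 (0.0883) did not, where 6.14% of genes passed and 1.99% upward.

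Whether the genotype difference itself varied between populations was tested by the interaction. None of the 7 genes passed (edgeR F test; 2.65% of genes did), none had an unadjusted p under 0.05 (14% of genes did), the lowest being 0.0890 for Tgtp2, and DESeq2 called 0 (5.97% of genes). The larger values in MEP were therefore not shown to differ from those of the other populations.

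The partners of the family were examined as lists. The guanylate-binding proteins (GBPs), larger interferon-inducible GTPases that act on the same vacuoles, had log2 fold changes above 0 for all 11 in LT-HSC (median 1.04) and none passed. In the second set they were above 0 for 3 of 9 in Tet2/Sting-DKO against WT (median -0.31), 1 of 9 in Sting-KO against WT (median -0.98) and 6 of 7 in Tet2/Sting-DKO against Sting-KO (median 0.77), where 48%, 51.1% and 51.9% of all genes were above 0. Over the mean of 6 populations 8 of 11 were above 0 (median 0.39), where 55.9% of all genes were, and Gbp7 passed (0.39, edgeR adjusted p = 0.0169), as did 2.93% of genes upward. Other IRG genes were above 0 in 9 of 10 tested over that same mean (median 1.02) and in 3 of 8 in CLP (median -0.10), and none passed there, though Irgq, an IRG relative, rose in MEP (1.41, adjusted p = 0.0281), as did 0.147% of genes. Among 12 genes of the autophagy conjugation machinery that loads IRG proteins onto vacuoles, 0 rose and 3 fell over the mean of 6 populations. The 3 were the conjugating enzyme Atg3 (-1.25), the ubiquitin-like Map1lc3a (-2.22) and the adaptor Sqstm1 (-1.26), where 4.01% of all genes fell. In LT-HSC, ST-HSC and CLP none of the 12 passed. Atg3 and Map1lc3a fell in each of CMP, GMP and MEP, as did 3.92%, 4.06% and 4.21% of genes. Atg3 passed the interaction test (edgeR adjusted p = 2.94e-07).

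Genes whose levels were most like those of a member over the 46 libraries were named from 8864 genes of at least 10 mean CPM, 3 for each member by Pearson r of log2 CPM. The 7 members were left out of this ranking, although some were nearer to each other, such as Tgtp1 with Tgtp2 (r = 0.98) and Iigp1 with Tgtp1 (0.85). For Tgtp1 they were Gbp7 (r = 0.90), the proteasome activator Psme1 (0.87) and Gnpda2 (0.85), and for Tgtp2 Gbp7 (0.89), Psme1 (0.87) and Gnpda2 (0.86). For Iigp1 they were Gbp7 (0.84), Gbp2 (0.77) and Gnpda2 (0.75). For Igtp they were Gbp6 (0.82), the class I gene H2-Q7 (0.76) and the immunoproteasome subunit Psmb10 (0.75). Irgm1 was nearest to the interferon-inducible genes Rnf213 (0.80) and Rtp4 (0.79), then to the mitochondrial ribosomal RNA mt-Rnr1 (0.74). Irgm2 was nearest to Lpp (0.84), Gm4070 (0.81) and BC064078 (0.80), which were 0.67, 0.71 and 0.63 without the 2 farthest libraries, and Ifi47 to 1500009L16Rik (0.77), Sdr39u1 (0.70) and F11r (0.70). The libraries share populations and scaling. By deviations from the group means the nearest genes outside the 7 were Pmvk for Irgm1 (0.77), Mpi for Igtp (0.89), Bsn for Iigp1 (0.62), Katna1 for Ifi47 (0.70), BC064078 for Irgm2 (0.62), Batf for Tgtp1 (0.76) and AW112010 for Tgtp2 (0.67).

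The second set asked whether Sting, on its own or with Tet2, bears on LT-HSC expression. It is another table with its own scaling, so levels are compared only within it, and each direction below rests on labels that the Sting counts of 4 of 9 libraries go against (WT replicate 3, Sting-KO replicates 1 and 3, Tet2/Sting-DKO replicate 3). A count over the whole gene does not show whether protein is made. The study states that STING was lost from bone marrow cells of both Sting genotypes, the way the labels say, in cells other than these libraries. Irgm2 was not detected in the libraries labelled WT (0 counts in each of 3). It was detected in those labelled Tet2/Sting-DKO (2155, 620 and 1907 counts, or 68.1, 8.65 and 43.9 CPM). The lowest of these was 96.4-fold above a floor of 3 counts per library, averaged over WT, which covers counting error only. Per library 9382 to 11528 genes were detected, against 17768 to 18631 in LT-HSC of the first set, whose table lists more genes. Tet2 and Sting were also at 0 in some WT libraries, so 0 counts do not bound the level. In the libraries labelled Sting-KO Irgm2 had 1, 62 and 0 counts. edgeR gave an adjusted p of 0.145 against WT, and WT of the first set held 10.9 to 20.1 CPM in LT-HSC, on the scale of another table.

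Igtp stood at 65.7, 68.8 and 49.1 CPM in WT, 247, 96.6 and 125 in Sting-KO, and 296, 172 and 312 in Tet2/Sting-DKO. Both labelled genotypes were above WT in every library (Tet2/Sting-DKO, log2 fold change 2.01, SE 0.43, edgeR adjusted p = 0.108; Sting-KO, 1.37, SE 0.51, adjusted p = 0.937). Tgtp1 was at 192, 196 and 289.7 CPM in Tet2/Sting-DKO, 71.7, 155 and 111 in WT, and 32.9, 97.8 and 128 in Sting-KO. Tgtp2 was at 420.3, 495 and 397 CPM, 117, 314 and 331, and 382, 268 and 155 in the same order. For both copies the Tet2/Sting-DKO libraries lay above the other 6. Irgm1 (359, 53.9 and 243 CPM in Tet2/Sting-DKO) and Iigp1 (375, 303 and 0.828) each had 1 library of that genotype far below the others and overlapped WT. Ifi47 (435, 212 and 122) overlapped WT as well. Marker lists of other cells moved with the labels. Dendritic markers summed to 2222 to 3804 CPM in Tet2/Sting-DKO against 1034 to 1787 in WT and 1119 to 1849 in Sting-KO, with 2 of 5 at 0 throughout each group. The T and NK list summed to 78.6 to 120 CPM against 44.8 to 60.8 in WT and 36.9 to 112 in Sting-KO, with 6 of 7 at 0, and the HSC list to 610 to 837 against 475 to 615 and 489 to 517. Their part in these differences was not tested.

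By edgeR 0 of 7 genes passed in Tet2/Sting-DKO against WT (0.041% of genes did upward, 0.657% in either direction), with 2 at an unadjusted p under 0.05 (5.36% of genes upward), and DESeq2 called 2, Igtp and Irgm2, and 8.52% of all genes (2.17% upward). The 4 of 7 genes higher without overlap compare with 11.3% of genes. Against Sting-KO 0 of 7 passed (0.159% of genes did, 0% upward), 1 had an unadjusted p under 0.05 (3.02% upward), DESeq2 called 1, Irgm2, and 6.75% of all genes (1.62% upward), and 3 of 7 were higher without overlap (8.13% of genes). In Sting-KO against WT 0 of the 6 genes tested passed (0% of genes did), 1 had an unadjusted p under 0.05 (2.26% upward), DESeq2 called 0 (2.63% of genes, 0.662% upward), and 1 of 7 was higher without overlap (5.96%). The smallest exact permutation p of 3 against 3 libraries is 0.1. The comparisons share libraries and are given side by side. Without the 4 libraries whose Sting counts go against the label, 2 WT, 1 Sting-KO and 2 Tet2/Sting-DKO libraries were left in 1 fit, in which the lone library is assumed to vary like the others. In it 0 of 7 genes passed in any of the 3 comparisons, but nearly none of all genes did (0.191% in Tet2/Sting-DKO against WT, 0.0153% upward, and 0% in the other 2). At an unadjusted p under 0.05 there were 3 of 7 in Tet2/Sting-DKO against WT, Igtp, Irgm2 and Iigp1 (2.6% of genes upward), 1 against Sting-KO, Ifi47 (1.21% upward), and 0 in Sting-KO against WT (0.565% upward). The log2 fold change of Tet2/Sting-DKO against WT was then 1.80 for Igtp, 0.78 for Tgtp1, 1.10 for Tgtp2 and 6.29 for Iigp1, whose low Tet2/Sting-DKO library was among those left out (edgeR adjusted p 0.267 to 0.732 over the 7 genes).

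**Figure D4:**
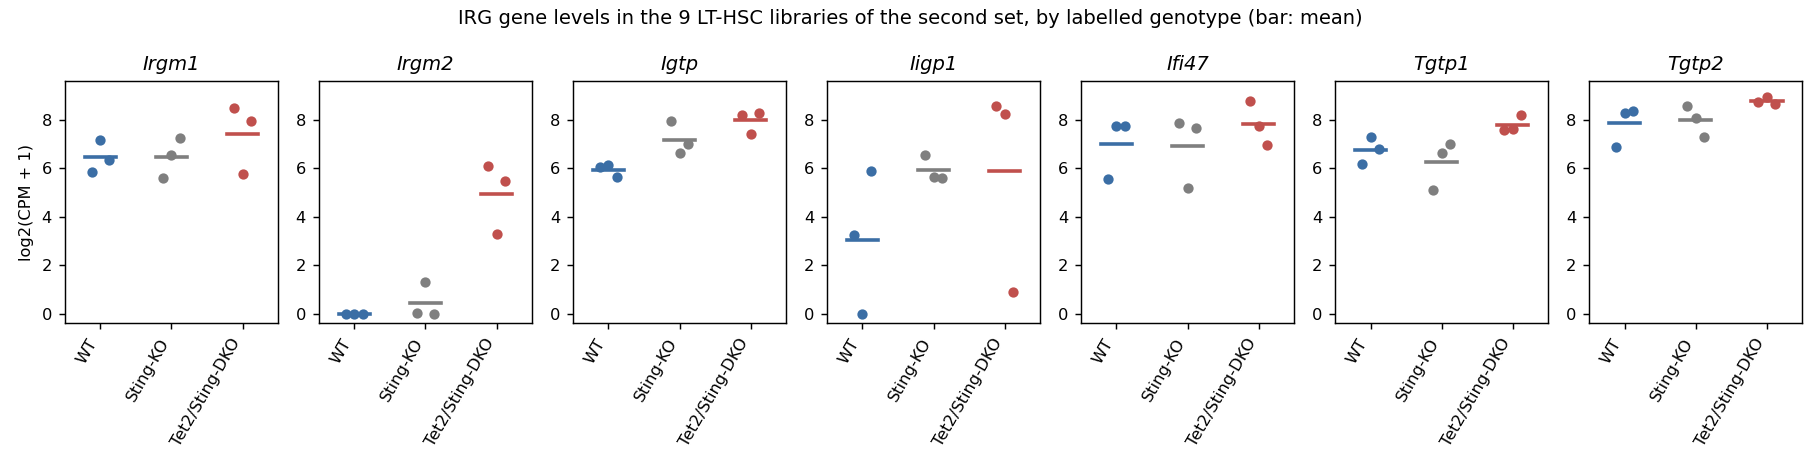
Level of the 7 IRG genes in the 9 LT-HSC libraries of the second set as log2(CPM + 1), by labelled genotype. Each point is 1 library and each bar the mean of its group. Irgm2 is at 0 in the 3 WT libraries and at 8.65 to 68.1 CPM in Tet2/Sting-DKO, and Igtp, Tgtp1 and Tgtp2 of Tet2/Sting-DKO lie above WT.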

How the data were processed

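The deposited values are whole-number counts of reads per gene, not normalized, in 1 table per set. Before counting, reads were trimmed (Trim Galore) and aligned (HISAT2) by the authors. The methods name mm10 and the submitters' processing notes both mm10 and mm9 (the notes give versions 0.6.7 and 7.5.0), and the counting program is not given in the sources used here. All columns were mapped by name, and 2 broken lines of the second table were left out.

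The main test was the quasi-likelihood test of edgeR 4.0.16 (R 4.3.3) after TMM scaling and filterByExpr, with Benjamini-Hochberg adjustment over all genes tested. A call in a comparison of 2 groups needed an adjusted p under 0.05 and 2-fold. F tests and the mean of 6 populations needed the p alone. Log2 values use a prior count of 2, and CPM uses TMM-scaled totals. For single genes, log2(CPM + 1) was compared by exact permutation, two-sided. Alternatives were DESeq2 1.42.0, a single fit of all libraries, a replicate block, RLE scaling, keeping low counts, limma 3.58.1, summed Tgtp copies and leaving out each library. In the fit of all 46 libraries, all libraries of a number of 1 genotype were left out together. Values are given for the members in each comparison, and other genes are named only where a list member passed or was among the 3 most like a member. The list of interferon signalling genes is not reported here. The members, lists and alternatives were chosen with earlier results of these data known. The edgeR fits were run on simulated independent libraries with larger changes than most seen here. That run does not check smaller differences or libraries that share a mouse. Plots were drawn with matplotlib 3.10.9.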

Additional observations from a re-analysis of the deposited data

Results flagged for a closer look

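In groups of 4 libraries, a value whose gap to its nearest neighbour took most of the group's range was singled out by Dixon's criterion, which chance meets in about 1 of 20 groups. It was met by 8 of 70 groups of IRG values. Irgm1 of Tet2-KO replicate 3 in LT-HSC stood at 213 CPM, with the other 3 at 144 to 153, and Igtp of Tet2-KO replicate 3 in MEP at 85.3 CPM, with the others at 26.1 to 28.7. In WT MEP, replicate 2 was high for both near-identical copies, Tgtp1 at 53.3 CPM (others 21.7 to 25.6) and Tgtp2 at 116 CPM (others 54.2 to 59.3). In WT CLP, Tgtp2 of replicate 5 was at 269.9 CPM (others 77.4 to 101.8). In GMP the low values were Ifi47 of Tet2-KO replicate 3 at 58.6 CPM (others 156 to 166), Ifi47 of WT replicate 4 at 52.6 CPM (others 119 to 128) and Irgm1 of WT replicate 3 at 35.5 CPM (others 41.5 to 42.4). The causes of these gaps were not tested.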

How the results depend on the processing

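DESeq2 called 2 in LT-HSC, 4 in MEP, 2 in Tet2/Sting-DKO against WT, 1 in Tet2/Sting-DKO against Sting-KO, 7 over the mean of 6 populations and 7 neighbouring WT pairs, where edgeR called 0, 1, 0, 0, 4 and 4. DESeq2 also called more of all genes, at 17.4% over the mean of 6 and 5.45% of neighbouring WT pairs, against 6.94% and 2.35% by edgeR. In MEP the count was 0 with no low-count filter, 2 with all libraries in 1 fit and 0 with the replicate block. Over the mean of 6 it was 2 with the replicate number as a random block (limma, a change of tool as well, within-number correlation 0.0217) and 1 with counts summed per number, which also left out LT-HSC and ST-HSC. Leaving out 1 library gave 0 to 2 in GMP and 0 to 4 in MEP. Leaving out all libraries of 1 number of a genotype gave 2 to 5 over the mean of 6 and 1 to 5 for WT pairs. The replicate block, tried although same-numbered libraries of the 2 groups compared do not deviate together (correlations of -0.0853 to 0.0402; across populations of 1 genotype the median was 0.0259 for the same number and -0.0086 for other numbers), moved no other count by over 1.5 times. Under it the log2 fold change in CLP turned to 0.063 for Igtp (adjusted p = 1, edgeR) and to -0.0030 for Ifi47. For Ifi47 in Sting-KO against WT it was 0.0090 with no filter, and for Irgm1 it was -0.084 without the 4 libraries whose Sting counts go against the label, an alternative chosen after seeing the data. Leaving out 1 library also turned the sign for Irgm2 in CMP (-0.28 to 0.11), for Irgm1 (-0.25 to 1.08) and Ifi47 (-0.25 to 0.44) in CLP, and for Irgm1 (-0.37 to 0.53), Ifi47 (-0.45 to 0.48) and Tgtp2 (-0.28 to 0.37) in Sting-KO against WT. Of the log2 fold changes under alternatives, 17 turned sign, 23 gained a call, 17 lost one and 862 kept direction and call. The causes were not tested.

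Groups of 3 or 4 libraries limit what can be seen, and the 3 against 3 libraries of the second set cannot give an exact permutation p under 0.1. Counts of Iigp1 in myeloid progenitors and of Irgm2 in MEP were low. Reads of Tgtp1 and Tgtp2, and of the overlapping Igtp and Irgm2, cannot be told apart with certainty in these tables.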
